A study of Mus musculus with 6 samples.

Results

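Of the 22180 genes measured in this array study, 10 are described here: the transcription factor gene Nfe2l2, which encodes NRF2, and 9 genes of NRF2 target or antioxidant proteins, Nqo1, Hmox1, Gclm, Gclc, Txnrd1, Sod2, Gpx3, Gstm1 and Txnip. They were chosen by name for what they encode, with earlier results of these data known. Each is read by 1 probe set annotated to that gene alone. The samples were LSK cells, the lineage-negative, Sca1-positive, cKit-positive fraction of mouse bone marrow in which hematopoietic stem cells and early progenitors lie. Cells came from 3 mice that carried Tifab-/- marrow (knockout, KO) and 3 mice that carried Tifab+/+ marrow (wild type, WT), with 1 Affymetrix MoGene 2.0 ST array for each mouse. All recipients in both groups were syngeneic Boy/J mice that had been lethally irradiated with 7 Gy and, 3 hours later, 4.75 Gy. The labels give an age or time of 3 months without settling which, and they do not say whether a donor marker was used in the sort, so host cells may be present in either group. By its label the KO marrow had no intact Tifab allele; how the gene was disrupted is not stated.

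NRF2 is held in the cytoplasm by KEAP1, an adaptor that hands it to a CUL3 ubiquitin ligase for destruction. Oxidants and electrophiles modify KEAP1, after which NRF2 accumulates, pairs with a small MAF protein and binds antioxidant response elements (AREs) in its target genes. The targets supply glutathione, thioredoxin and NADPH, and enzymes that detoxify quinones, heme and electrophiles. In bone marrow, hematopoietic stem cells keep reactive oxygen low, and antioxidant control by FOXO and NRF2 factors is known to bear on their quiescence and upkeep.

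To show the elements through which such factors are known to act, the promoters of these genes were searched from 250 bases before to 50 bases after each listed start (RefSeq, GRCm38.p6). The ARE core was searched as TGACNNNGC on both strands, and 8 of the 10 genes had a promoter in the table. The core was found for 3 of them, Nfe2l2, Gclm and Txnrd1, a share of 37.5%, against 14.9% of the 16990 measured genes with a promoter. Mafk, the small MAF gene with the lowest p among the NRF2 regulators below, is shown beside them. Sqstm1 was searched as well and gave no match. Of 116 genes with a promoter in the related lists below, 23 (19.8%) had the core. Among those 23, 1 (Mafk) had an unadjusted p under 0.05 in limma, or 4.3%, against 9.1% of all genes with the core. Txnip is shown for a different element, the tandem carbohydrate response element bound by the MondoA and ChREBP factors, searched as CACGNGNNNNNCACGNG on both strands and present in 16 of 32851 promoters. The matched letters are in capitals, each window is written 5′ to 3′ along the gene's strand, and the 2 motifs did not fall in the same promoter here.
Nfe2l2, chr2:75704865-75704913, minus strand: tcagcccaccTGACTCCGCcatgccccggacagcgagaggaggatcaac
Gclm, chr3:122245393-122245461, plus strand: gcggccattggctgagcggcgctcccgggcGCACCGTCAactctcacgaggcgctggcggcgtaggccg
Txnrd1, chr10:82859084-82859152, plus strand: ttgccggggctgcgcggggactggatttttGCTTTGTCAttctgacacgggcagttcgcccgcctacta
Mafk, chr5:139791493-139791561, plus strand: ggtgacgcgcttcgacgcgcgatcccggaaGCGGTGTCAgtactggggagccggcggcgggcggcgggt
Txnip, chr3:96557832-96557928, plus strand: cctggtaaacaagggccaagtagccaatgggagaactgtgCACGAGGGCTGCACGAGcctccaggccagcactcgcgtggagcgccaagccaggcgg
In Gclm, Txnrd1 and Mafk the core reads on the opposite strand, so the capitals show its reverse complement. The first base of the capitals lies 240 bases before the start in Nfe2l2, 134 in Gclm, 92 before 1 of the 3 listed starts of Txnrd1, 13 in Mafk and 85 in Txnip. A match is a description of the letters and not evidence of binding. Bases further from each start were not searched, so a gene without a match may still have an ARE elsewhere. Across all measured genes with a promoter, the median log2 fold change was 0.02 with the core and 0.00 without it. Over the 8 of the 10 genes with a promoter, it was 0.03 for the 3 with the core and -0.20 for the rest.

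The arrays were alike: over 22180 genes they correlated at r = 0.984 to 0.986 within the KO group, 0.976 to 0.979 within the WT group and 0.975 to 0.983 between groups, across genes, which are not independent replicates. Tifab itself read 5.21, 5.12 and 5.26 in the KO arrays and 4.99, 5.37 and 5.53 in the WT arrays, so its probe set gives no check on the labels. Kit, one of the markers of the sort, lay between 9.41 and 9.69 over the 6 arrays, and of 8 measured stem and progenitor markers Hlf was lower with an unadjusted p below 0.05, by -0.33 without overlap. Markers of other cells passed that threshold too. Of all genes, 10.3% passed it and 16.1% showed no overlap between groups. Of 10 macrophage markers, Vcam1 (-0.74) and C1qb (-0.51) were lower and C1qa (0.52) was higher. The linear signal summed over the 10 markers, led by Cd68, was 442 to 532 in the KO arrays and 356 to 513 in the WT arrays. Of 10 neutrophil markers, Mmp8 (-0.85) and Cd177 (-0.42) were lower, and the sum, carried mostly by S100a8 and S100a9, was 5775 to 6942 in the KO arrays and 5871 to 6883 in the WT arrays. Of 9 measured eosinophil, basophil and mast cell markers, Prg2 (-1.75), Epx (-0.89) and Ms4a2 (-0.57) were lower, with sums of 570, 1308 and 466 in the KO arrays and 1302, 866 and 1064 in the WT arrays. Of 8 platelet markers 2 were lower, and 0 of the erythroid, B cell, T and NK cell and stromal markers passed. The sum of the B and plasma cell markers was nevertheless high and uneven. It was 7062, 7116 and 7665 in the KO arrays and 5500, 5362 and 8302 in the WT arrays. Most of it came from Ighm, which lay between 12.14 and 12.64 over the 6 arrays. Ms4a1, Vpreb1 and Ebf1 had a mean signal below the median of all genes, and Cd79a, Cd79b, Pax5, Igll1 and Jchain above it. The part of these cells in the differences below was not tested. Sca1 (Ly6a) and the globin genes were not analysed here. No difference below separates fewer cells of a type from less RNA per cell.

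The 10 genes showed little difference between the genotypes. In limma, 0 of the 10 passed an adjusted p of 0.05, as did 0 of all 22180 genes. With an unadjusted p below 0.05 there was 1 gene of the 10 that was lower in KO cells (Gstm1) and 0 that were higher, a share close to the background of 10.3% of all genes, 5.51% lower and 4.74% higher. The KO and WT arrays did not overlap for 1 of the 10, against 16.1% of all genes. The median log2 fold change (KO minus WT) was -0.12 over the 10 genes, 4 above 0 and 6 below, and 0.00 over all genes.

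**Figure D1:**
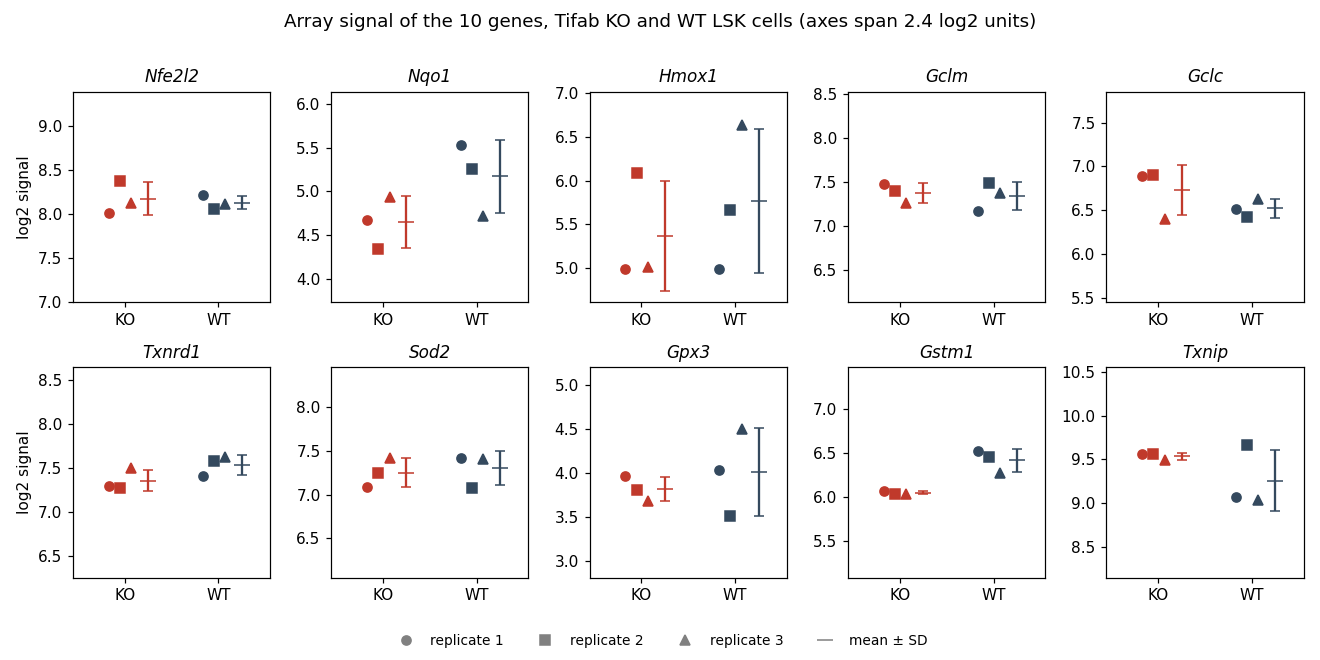
Normalized log2 array signal of each of the 10 genes in 3 KO (left, red) and 3 WT (right, dark) LSK samples, with replicates by symbol and the mean ± SD beside them. The KO arrays lie below the WT arrays without overlap only for Gstm1; the KO arrays are tightly grouped for Gstm1 and Txnip, and both groups are wide for Hmox1.

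Nfe2l2, the factor itself, differed by less than the spread between replicates. It read 8.01, 8.38 and 8.13 in the KO arrays and 8.21, 8.06 and 8.12 in the WT arrays. The WT values lay within the KO range, and the log2 fold change was 0.04 ± 0.14 (SE, limma adjusted p = 0.939). The 95% interval ran from -0.26 to 0.35, or 0.833 to 1.27 of the WT level. NRF2 is known to be controlled mostly through the stability of its protein, which arrays do not measure. The 3 genes whose signal followed Nfe2l2 most closely over the 6 arrays, among 10196 genes above the median signal (predicted, small RNA, olfactory and antigen receptor genes left out), were Gin1, Dennd5b and Ankrd26, at Pearson r of 0.994, 0.995 and 0.993 and Spearman rho of 1, 0.943 and 0.943. These are descriptions over 6 arrays, and the 3 genes had log2 fold changes of 0.10, 0.07 and 0.09.

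Both subunits of glutamate-cysteine ligase, the rate-limiting enzyme of glutathione synthesis, were measured. The catalytic subunit gene Gclc read 6.89, 6.91 and 6.40 in the KO arrays and 6.51, 6.42 and 6.63 in the WT arrays. In KO cells 2 arrays lay above the WT arrays and the third below them, with a log2 fold change of 0.21 ± 0.18 (SE, limma adjusted p = 0.707). It was 0.38 without KO replicate 3, 0.13 without KO replicate 1 and 0.12 without KO replicate 2. The modifier subunit gene Gclm, whose product raises the efficiency of the catalytic one, read 7.47, 7.40 and 7.26 in the KO arrays and 7.17, 7.48 and 7.38 in the WT arrays. These ranges lay over each other, and the log2 fold change of 0.03 ± 0.14 (SE) had a 95% interval of -0.29 to 0.36.

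The detoxifying enzymes gave the largest differences of the set. Nqo1, a quinone reductase widely used as a readout of NRF2, read 4.68, 4.34 and 4.94 in the KO arrays and 5.53, 5.26 and 4.72 in the WT arrays. WT replicates 1 and 2 were above every KO array and WT replicate 3 was among them. The log2 fold change of -0.52 ± 0.24 (SE, limma adjusted p = 0.494) corresponds to 0.699 of the WT level, with a 95% interval of 0.481 to 1.02, and it was -0.74 without WT replicate 3 and -0.34 without WT replicate 1.

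Gstm1, a mu-class glutathione S-transferase that conjugates glutathione to electrophiles, read 6.07, 6.04 and 6.04 in the KO arrays and 6.52, 6.46 and 6.27 in the WT arrays. All 3 KO arrays lay below all 3 WT arrays, and the KO arrays spanned only 0.03 log2 units against 0.25 in the WT arrays. Its log2 fold change was -0.37 ± 0.15 (SE), or 0.773 of the WT level with a 95% interval of 0.616 to 0.971. The unadjusted p of 0.0309 became 0.446 after adjustment over all genes in limma. The log2 fold change lay between -0.44 and -0.32 with any 1 array left out, and the unadjusted p then stayed under 0.05 only without WT replicate 3. Mu-class genes are close copies of each other, and how far their probes cross-hybridise was not tested. Among the other mu-class genes, Gstm3 had -0.32, Gstm6 -0.27, Gstm4 -0.11, Gstm7 -0.08 and Gstm2 0.10, with an unadjusted p above 0.05 for each.

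Hmox1, the inducible heme oxygenase that breaks heme down to biliverdin, iron and carbon monoxide, varied more within the groups than between them. It read 4.99, 6.09 and 5.02 in the KO arrays and 5.00, 5.66 and 6.63 in the WT arrays. KO replicate 2 and WT replicates 2 and 3 were high, and the other 3 arrays lay near 5. The log2 fold change was -0.40 ± 0.42 (SE, limma adjusted p = 0.774), with a 95% interval of -1.33 to 0.54, and it was 0.04 without WT replicate 3, -0.78 without WT replicate 1, -0.76 without KO replicate 2, and -0.21 and -0.22 without KO replicates 1 and 3. Macrophages are a known source of Hmox1. The summed macrophage markers were 532, 442 and 447 in the KO arrays and 356, 513 and 427 in the WT arrays. In this sum Cd68 was the largest part, and in the erythroid sum below it was Car1 in most arrays, so each leans on 1 gene. The erythroid markers, of which 6 of 10 were measured, summed to 378, 442 and 458 in the KO arrays and 282, 500 and 497 in the WT arrays, and the part of either list in the Hmox1 values was not tested.

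Of the thioredoxin pair, the reductase and the inhibitor leaned opposite ways without passing. Txnrd1, the cytosolic selenoenzyme that reduces thioredoxin, read 7.30, 7.27 and 7.49 in the KO arrays and 7.40, 7.58 and 7.62 in the WT arrays. Only KO replicate 3 reached into the WT range, and the log2 fold change was -0.18 ± 0.14 (SE, limma adjusted p = 0.672). Txnip, which binds and inhibits thioredoxin and restrains glucose uptake, read 9.56, 9.56 and 9.49 in the KO arrays and 9.07, 9.66 and 9.04 in the WT arrays. The KO arrays stood together within 0.07 log2 units, while WT replicate 2 was above them and WT replicates 1 and 3 were below.

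The log2 fold change of Txnip was 0.28 ± 0.16 (SE, limma adjusted p = 0.574), or 1.21 times the WT level with a 95% interval of 0.945 to 1.56. Without WT replicate 2 it was 0.48 (limma adjusted p = 0.294), and without WT replicate 3 it was 0.17. A second probe set that covers Txnip together with an overlapping predicted gene was not used. The genes closest to Txnip over the 6 arrays were Cul7, Tedc1 and Kat8, at Pearson r of 0.989, 0.988 and 0.988 and Spearman rho of 0.829, 0.771 and 0.829, with log2 fold changes of 0.32, 0.23 and 0.39. These genes were picked for that likeness over the same arrays, so their r and fold changes are description only.

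The remaining enzymes act on superoxide and peroxides. Sod2, the mitochondrial manganese superoxide dismutase and also a known NF-kB and FOXO target, read 7.09, 7.25 and 7.42 in the KO arrays and 7.41, 7.08 and 7.41 in the WT arrays. The 2 ranges were nearly the same, and the log2 fold change was -0.05 ± 0.16 (SE), with a 95% interval of -0.41 to 0.31. Gpx3, the secreted selenium-dependent glutathione peroxidase, read 3.96, 3.81 and 3.68 in the KO arrays and 4.03, 3.50 and 4.50 in the WT arrays. The WT arrays lay on both sides of the KO arrays, and the log2 fold change of -0.20 ± 0.24 (SE) was 0.05 without WT replicate 3, -0.45 without WT replicate 2 and -0.13 without KO replicate 3. Gpx3 was the only one of the 10 whose mean signal was below the median of all genes, where array fold changes are compressed.

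**Figure D2:**
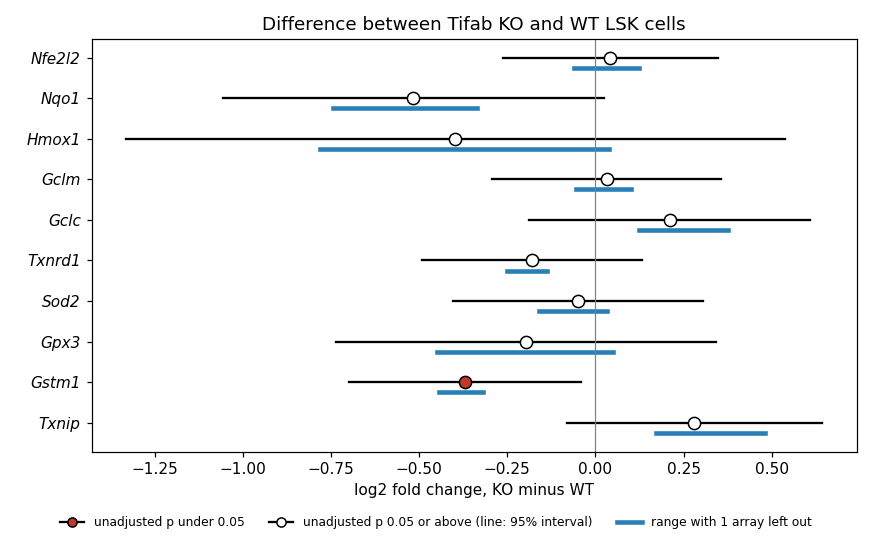
Log2 fold change (KO minus WT) of each gene on the x axis, with its 95% interval from limma (black line) and the range over fits with 1 array left out (blue bar). The interval of Gstm1, -0.70 to -0.04, is the only one that leaves out 0; the widest belongs to Hmox1, -1.33 to 0.54.

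Among genes whose proteins control NRF2, Mafk and Sqstm1 were lower in KO cells without overlap between groups. The list held these 2 with KO below WT and 1 with KO above WT, against 8.37% and 7.75% of all genes. Of 15 measured regulator genes (16 listed), 2 had an unadjusted p below 0.05 and were lower, and 13 did not pass, a share of 13.3% near the 10.3% of all genes; 0 passed the adjusted threshold, and the median log2 fold change was -0.09 against 0.00 over all genes. Mafk, which encodes a small MAF partner of NRF2 that can also pair with the repressor BACH1, read 6.38, 6.32 and 6.21 in the KO arrays and 7.04, 7.00 and 6.79 in the WT arrays. The groups were 0.64 log2 units apart without overlap (-0.64 ± 0.15, SE, limma unadjusted p = 0.00166, adjusted p = 0.299). Sqstm1, which encodes p62, a scaffold that draws KEAP1 into autophagy and is itself an NRF2 target, read 8.62, 8.48 and 8.45 in the KO arrays and 9.29, 9.10 and 8.84 in the WT arrays. Again each KO array lay below each WT array, with a log2 fold change of -0.56 ± 0.14 (SE, limma adjusted p = 0.334).

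Both genes kept an unadjusted p under 0.05 in each of the 15 alternative fits, Mafk at -0.72 to -0.59 and Sqstm1 at -0.68 to -0.46. These fits reuse the same arrays and are not independent support, and Mafk was named for its small p. The lowest limma adjusted p over them was 0.202 for Mafk and 0.195 for Sqstm1. Keap1 had -0.29 ± 0.21 (SE), with KO values of 4.85 to 5.20 and WT values of 4.95 to 5.70, or -0.49 without WT replicate 1, -0.12 without WT replicate 3 and -0.19 without KO replicate 2, while a dimmer Keap1 probe set gave 0.08. The repressor gene Bach1, which competes with NRF2 at AREs, had -0.22 ± 0.15 (SE), and the small MAF gene Mafg -0.09 ± 0.15 (SE). Gsk3b, a kinase that marks NRF2 for a KEAP1-independent route of destruction, had 0.41 ± 0.19 (SE, limma adjusted p = 0.492).

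**Figure D3:**
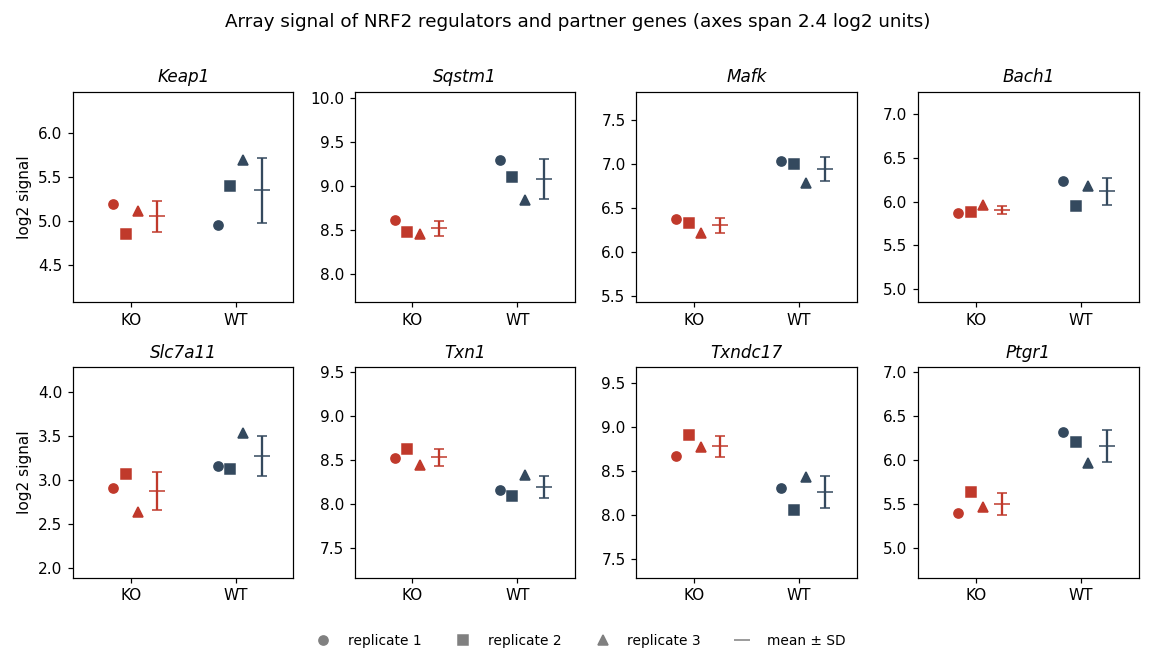
Normalized log2 array signal of 4 NRF2 regulators and 4 partner or target genes in 3 KO (left, red) and 3 WT (right, dark) LSK samples, with the mean ± SD beside the points. KO arrays lie below WT arrays without overlap for Sqstm1, Mafk, Slc7a11 and Ptgr1, lie above them for Txn1 and Txndc17, and overlap them for Keap1 and Bach1.

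Around glutathione, 16 genes of synthesis and recycling were measured. An unadjusted p below 0.05 held for 3 of them, 1 higher and 2 lower (18.8%, against 10.3% of all genes), and the list median was -0.01. Slc7a11, the cystine importer that feeds glutathione synthesis and a classical NRF2 target, was dim on the array and read 2.91, 3.06 and 2.64 in the KO arrays and 3.15, 3.12 and 3.53 in the WT arrays (log2 fold change -0.40 ± 0.17, SE). A dimmer probe set of it gave -0.20. Slc25a39, the carrier of glutathione into mitochondria, averaged 6.66 ± 0.07 in KO cells and 7.01 ± 0.03 in WT cells (SD, n = 3 each), with no overlap. Chac1, an enzyme that degrades glutathione and a stress-response gene, was on the higher side at 0.55 ± 0.23 (SE), or 0.28 without KO replicate 2. Gsr, the reductase that regenerates glutathione, had -0.05 ± 0.18 (SE).

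Among 15 measured thioredoxin, peroxiredoxin and methionine sulfoxide reductase genes, 2 were higher with an unadjusted p below 0.05 and 0 were lower at that threshold (13.3%, against 10.3% of all genes). They were Txn1, the cytosolic thioredoxin, and Txndc17, a thioredoxin-related disulfide reductase. Txn1 read 8.52, 8.63 and 8.44 in the KO arrays and 8.16, 8.08 and 8.32 in the WT arrays (0.34 ± 0.12, SE, limma adjusted p = 0.419). Txndc17 read 8.67, 8.90 and 8.77 in the KO arrays and 8.30, 8.06 and 8.43 in the WT arrays (0.52 ± 0.13, SE, limma adjusted p = 0.334). The KO arrays were above the WT arrays without overlap for both. Msrb3, a methionine sulfoxide reductase, had -0.42 ± 0.21 (SE). Srxn1, the sulfiredoxin that repairs overoxidised peroxiredoxins and a known NRF2 target, had -0.27 ± 0.18 (SE), or -0.11 without KO replicate 1. Prdx1 was not analysed here.

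Of 10 other superoxide dismutase, catalase and glutathione peroxidase genes, 0 had an unadjusted p under 0.05 in limma with the values as deposited. Catalase (Cat), which splits hydrogen peroxide, averaged 8.09 ± 0.15 in KO cells and 7.77 ± 0.30 in WT cells (SD, n = 3 each), a log2 fold change of 0.33 ± 0.17 (SE), or 0.15 without WT replicate 2. Sod1, the cytosolic copper and zinc enzyme, had 0.04 ± 0.07 (SE), and Gpx1, the main cytosolic glutathione peroxidase, -0.10 ± 0.07 (SE). Gpx1 lay at 11.22 to 11.30 in the KO arrays and 11.31 to 11.43 in the WT arrays, apart by a narrow margin. With quantile normalization and cyclic loess its log2 fold change was -0.17 and -0.20, and the unadjusted p in limma was then 0.042 and 0.013. Gpx2, a peroxidase of gut epithelium, and Sod3, the extracellular dismutase, had -0.51 and -0.26, with overlapping groups. Leaving out 1 array gave -0.87 to -0.24 for Gpx2 (without KO replicates 3 and 1) and -0.41 to -0.15 for Sod3 (without WT replicates 3 and 2).

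The glutathione S-transferases other than Gstm1 held 2 of 18 measured genes that were higher with an unadjusted p below 0.05 and 0 that were lower at that threshold (11.1%, against 10.3% of all genes). Gstt2, of the theta class, had 0.51 ± 0.18 (SE) and no overlap between groups, and Gstk1, of the kappa class found in mitochondria and peroxisomes, had 0.48 ± 0.20 (SE). The pi-class gene Gstp2 had 0.24 ± 0.13 (SE). Of the other NRF2 target enzymes and exporters, 10 of 17 were below 0 and 7 above, and 2 of the 17 (11.8%) had an unadjusted p below 0.05, both lower. The arrays did not overlap for 2 of the 17 with KO above WT and 1 with KO below WT, against 7.75% and 8.37% of all genes. Ptgr1, which reduces leukotriene B4 and reactive alkenals, read 5.40, 5.64 and 5.46 in the KO arrays and 6.32, 6.20 and 5.97 in the WT arrays. Its groups were apart by -0.66 ± 0.16 (SE, limma adjusted p = 0.334), with -0.76 to -0.58 over the alternative fits. The carbonyl reductase gene Cbr3 had -0.71 ± 0.31 (SE), or -0.33 without WT replicate 2, and Nqo2, the quinone reductase related to NQO1, had 0.69 ± 0.31 (SE), or 0.38 without WT replicate 1 and 0.41 without KO replicate 3.

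**Figure D4:**
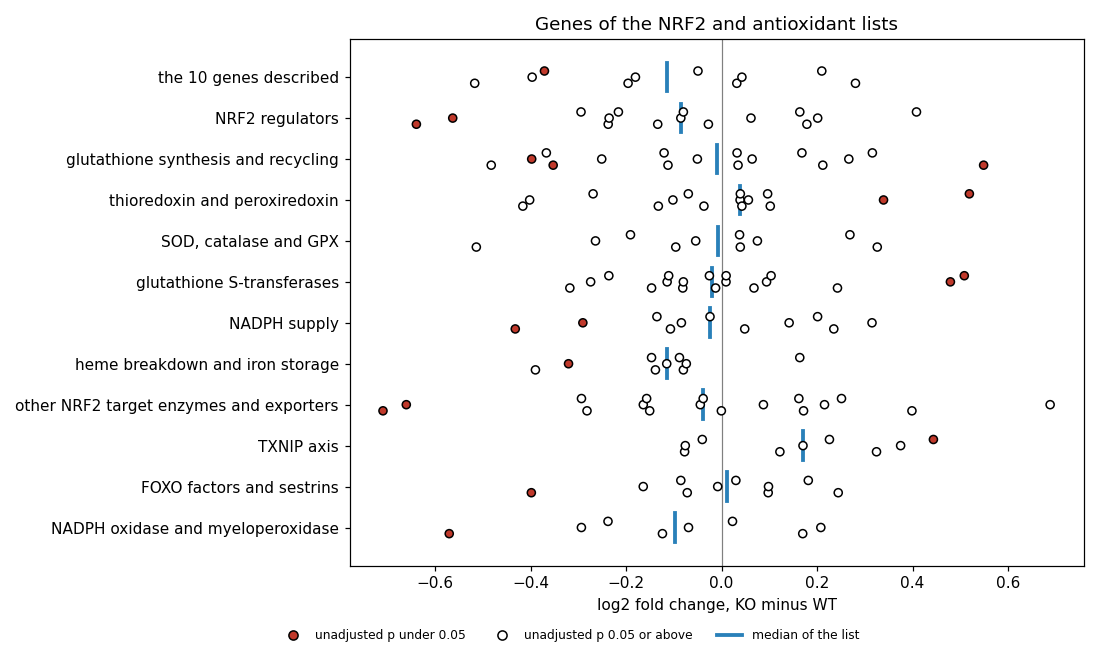
Log2 fold change (KO minus WT, x axis) of each measured gene in the 10-gene set and in 11 lists of related genes, filled red where the unadjusted p in limma was under 0.05, with the median of each list as a blue line. Genes of every list lie on both sides of 0. List medians run from -0.12, for the 10 genes and for heme breakdown and iron storage, to 0.17 for the Txnip axis.

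The supporting lists were mixed as well. Of 11 measured NADPH supply genes, 2 were lower with an unadjusted p below 0.05 and 0 higher at that threshold (18.2%, against 10.3% of all genes): mitochondrial isocitrate dehydrogenase Idh2 at -0.29 ± 0.11 (SE), with no overlap, and the NAD kinase gene Nadk at -0.43 ± 0.19 (SE), or -0.28 without WT replicate 1. The cytosolic Idh1 had 0.31 ± 0.18 (SE), or 0.18 without WT replicate 3. Of 9 genes of heme breakdown and iron storage, 8 were below 0, against 50% of all genes, and 1 of the 9 (11.1%, against 10.3% of all genes) had an unadjusted p below 0.05: the heme transporter gene Slc48a1 at -0.32 ± 0.13 (SE). Ferritin heavy chain Fth1 had -0.08. Ferrochelatase Fech, which makes heme rather than breaking it down, was the only gene of this list above 0, at 0.16.

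Among 9 genes around Txnip, 1 was higher with an unadjusted p below 0.05 and 0 lower at that threshold (11.1%, against 10.3% of all genes), and the median was 0.17. It was the arrestin-domain gene Arrdc2, at 0.44 ± 0.18 (SE), without overlap. Its relative Arrdc3 had 0.37, or 0.63 without WT replicate 3 and 0.17 without WT replicate 2, and the ChREBP gene Mlxipl 0.32, or 0.15 without WT replicate 1. Of 10 FOXO, sestrin, sirtuin and PGC-1 genes, 5 were below 0 and 1 of the 10 had an unadjusted p below 0.05: Foxo3, a regulator of stem cell quiescence and of Sod2 and Cat, at 5.67 ± 0.06 in KO cells and 6.07 ± 0.27 in WT cells (SD, n = 3 each), a log2 fold change of -0.40 ± 0.17 (SE), or -0.25 without WT replicate 2. Foxo1 had 0.24, or 0.11 without WT replicate 2, with -0.15 in a dimmer probe set, and Sirt1 -0.16. Of 8 NADPH oxidase and myeloperoxidase genes, which make oxidants, the hydrogen peroxide-producing oxidase gene Nox4 was the only one with an unadjusted p below 0.05 (12.5% of the list), at -0.57 ± 0.20 (SE). Its mean signal was below the median of all genes, and it had -0.76 to -0.45 with 1 array left out. The unadjusted p in limma was 0.079 without KO replicate 1, 0.067 without KO replicate 3 and 0.066 without WT replicate 1. Mpo and Ncf4 had 0.17 and 0.21 and missed that threshold; their KO arrays lay above their WT arrays, as for 7.75% of all genes. Mpo had 0.08 with quantile normalization and with cyclic loess and 0.09 without KO replicate 1, and Ncf4 had 0.12 without WT replicate 2.

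Over the 138 measured genes of the 11 lists, of 152 listed, 17 had an unadjusted p below 0.05 in limma (6 higher and 11 lower), 12.3% against the background of 10.3% of all genes, and 0 passed the adjusted threshold. The arrays did not overlap for 11 genes with KO above WT and 10 with KO below WT, against 7.75% and 8.37% of all genes. Their median log2 fold change was -0.04. With 3 arrays in each group, the number of arrays limits the precision, and the interval of every one of the 10 genes except Gstm1 spans 0.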

How the data were processed

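The authors deposited 1 table of normalized log2 probe set values for 41345 probe sets on 6 arrays. Per the submitters' processing notes they came from Affymetrix Expression Console; its version, background correction, summary method, normalization and filters are not stated. Array medians lay between 4.05 and 4.10, so no further normalization was applied. Probe sets with exactly 1 symbol (23521; 1814 had several and 16010 were not listed) were named through the platform annotation, and the one with the highest mean over 6 arrays stood for the gene. KO and WT arrays, grouped by their titles, were compared with limma 3.58.1 in R 4.3.3 (lmFit, eBayes with an intensity trend, two-sided tests of genotype alone), and p-values were adjusted by Benjamini-Hochberg over 22180 genes at a threshold of 0.05. The fit was tested on simulated data. Unadjusted p-values are given because no gene passed. The labels name 3 mice in each group and no batch.

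The 10 genes and the lists were chosen with earlier results of these data known. Named were the 10 genes, Tifab, up to 3 genes with the smallest p per list, 12 partner genes chosen by name (Prdx1 was not analysed here), and the 3 genes most like Nfe2l2 and Txnip by Pearson r; other mu-class transferases and marker genes were added after their values were seen. The alternatives tried were cyclic loess, median centring and quantile normalization, weights per array, eBayes in its robust form or with no trend, a filter that drops the dimmest 40% of genes, averaging the probe sets of a gene, a block for the replicate number, and each array left out. Promoter letters are from RefSeq (GRCm38.p6).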

Additional observations from a re-analysis of the deposited data

How the results depend on the processing

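Over 15 alternative fits, 0 of the 10 genes passed the adjusted threshold, and 5 of them (Nqo1, Gclc, Txnrd1, Gstm1 and Txnip) kept their direction in each. Leaving out 1 array turned the others through 0, with log2 fold changes of -0.061 to 0.123 for Nfe2l2, -0.781 to 0.038 for Hmox1, -0.054 to 0.102 for Gclm, -0.159 to 0.034 for Sod2 and -0.45 to 0.049 for Gpx3, and likewise -0.251 to 0.017 for Tifab, -0.297 to 0.048 for Sirt1, -0.153 to 0.121 for Gsr and -0.007 to 0.08 for Sod1. Quantile normalization gave -0.017 for Nfe2l2 and -0.028 for Sod1, and cyclic loess gave -0.006 for Nfe2l2, -0.002 for Gclm and -0.063 for Sod1; the cause was not tested. The count of the 10 at an unadjusted p under 0.05, which was 1, was 2 with median centring and with cyclic loess (Nqo1 joined Gstm1), and 0 to 2 with 1 array left out. The listed genes at that threshold, 17, numbered 10 to 24 with 1 array left out. Over all genes the count of 2274 was 1218 without dim genes, where fewer genes were tested, and 1630 to 2713 with 1 array left out; 1052 higher and 1222 lower became 1190 and 848 with quantile normalization. With 1 array left out, 0 to 1 genes passed the adjusted threshold: Prg2 without KO replicate 2 and Iglv1 without WT replicate 3, named after their values were seen. Replicate numbers did not pair the arrays (correlations of same-numbered deviations 0.02, -0.03 and -0.09), and with the replicate block 0 of the 10 genes had an unadjusted p under 0.05 and 14 listed genes did. Signals near the floor limit the fold changes of Gpx3, Mlxipl, Slc7a11 and Gpx2. Those of Cbr3, Nox4 and Sod3 also lay below the median of all genes.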
